A study of Homo sapiens with 8 samples.

Results

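The genes described here are 34 genes of the endoplasmic reticulum (ER) chaperone system and the unfolded protein response, and 33 of them were measured among 8961 genes. They were taken from a list of names, with no threshold on their values, but the list was chosen with earlier results of these data known. A gene was measured when a probe set annotated with that gene alone reached a signal of 500 on at least 1 of 8 arrays, and among several the brightest on average stood for it. SYVN1, the ubiquitin ligase of ER-associated degradation, is carried by 1 probe set that is annotated with several genes, and it was not measured. ERN1, with a highest signal of 592, was the measured gene closest to the limit of 500, and DNAJC3 had a further probe set that stopped just below it at 499.9.

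The study knocked down IGF2R, the cation-independent mannose 6-phosphate receptor that carries acid hydrolases from the Golgi to endosomes, in BOKU and SKG-I, 2 human cervical cancer cell lines. The groups were BOKU cells with siIGF2R, BOKU cells with siCtrl, SKG-I cells with siIGF2R and SKG-I cells with siCtrl, all transfected by lipofection and harvested after 72 h. Each group gave 1 RNA sample, which was hybridised to 2 arrays, so that within a line the transient knockdown rests on 1 RNA sample per siRNA and the 2 lines are the only replicates. The sources used here do not say which siRNA against IGF2R the arrays represent.

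Proteins that enter the secretory pathway fold in the ER with the help of the HSP70-type chaperone BiP (HSPA5), its J-domain partners, lectin chaperones and disulfide isomerases, and proteins that fail to fold are sent back to the cytosol for degradation. Unfolded proteins activate the sensors IRE1 (ERN1), ATF6 and PERK (EIF2AK3). IRE1 splices XBP1 mRNA, and spliced XBP1 and cleaved ATF6 switch on chaperone and degradation genes. PERK phosphorylates eIF2 alpha, which favours translation of ATF4, and ATF4 switches on genes of amino acid supply and of stress-induced death. Other eIF2 kinases feed the same ATF4 step without ER stress.

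Elements of both control routes were searched for in the DNA upstream of these genes and are shown here before the values. Exact matches were found in 13 of the genes, within the windows given next, and the windows of the other genes searched held none. Sites that vary from these letters or lie outside the windows were not searched, so that a gene without a match may still have such a site. Promoter windows of RefSeq (GRCh38.p14), from 250 bases before to 50 bases from each transcript start on, were given for 32 of the 34 genes (all but DERL1 and PDIA3), in 44 windows. The ER stress element (ERSE, CCAAT, 9 bases of any kind and CCACG), which is bound by ATF6 together with NF-Y, and the shorter ERSE-II (ATTGG, 1 base of any kind and CCACG) were searched on both strands. In the following stretches, written 5′ to 3′ on the strand of the gene, capitals mark the fixed letters of ERSE or ERSE-II, in the forward form (CCAAT before CCACG, or ATTGG before CCACG) or as the reverse complement.
HSPA5, chr9:125241386-125241414, minus strand: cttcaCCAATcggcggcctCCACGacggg
HSP90B1, chr12:103930211-103930344, plus strand: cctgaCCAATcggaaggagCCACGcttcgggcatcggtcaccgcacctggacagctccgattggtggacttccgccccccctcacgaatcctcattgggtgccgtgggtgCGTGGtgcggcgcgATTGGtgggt
CALR, chr19:12938379-12938407, plus strand: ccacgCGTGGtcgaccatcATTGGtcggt
PDIA6, chr2:10812848-10812876, minus strand: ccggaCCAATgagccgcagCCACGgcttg
CRELD2, chr22:49918549-49918577, plus strand: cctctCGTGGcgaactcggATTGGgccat
XBP1, chr22:28800598-28800626, minus strand: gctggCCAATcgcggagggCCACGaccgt
HERPUD1, chr16:56932020-56932040, plus strand: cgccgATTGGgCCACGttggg
HYOU1, chr11:119057269-119057395, minus strand: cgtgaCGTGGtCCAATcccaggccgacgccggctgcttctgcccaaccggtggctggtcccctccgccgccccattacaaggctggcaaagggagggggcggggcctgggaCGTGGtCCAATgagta
SDF2L1, chr22:21642109-21642129, plus strand: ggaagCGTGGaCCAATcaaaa

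ERSE was present in 7 of the 32 genes, the 6 shown above and CANX, and in 0.0916% of all 27305 genes (0.0769% of their 35116 windows). HERPUD1, HYOU1 and SDF2L1 held ERSE-II, which 0.0696% of all genes held (0.0541% of all windows). Either element was present in 10 of the 32 genes and in 0.161% of all genes (0.131% of all windows). HSP90B1 held 2 copies of ERSE and HYOU1 held 2 copies of ERSE-II. The unfolded protein response element (UPRE, TGACGTGG), a site of XBP1 and ATF6, was present in DNAJC10 and HYOU1. It was present in 0.927% of all genes (0.729% of all windows), and in HYOU1 it shared bases with a reversed ERSE-II. Neither DNAJB11 nor DNAJC3 held a full ERSE, ERSE-II or UPRE in its window.

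The C/EBP-ATF response element (CARE, TGATGNAAN), the site of ATF4 with a C/EBP partner, was present in ASNS, CHAC1 and HERPUD1. It was present in 4.45% of all genes (3.61% of all windows), and in 2 of the 8 ATF4 branch genes. The next stretches are shown because both genes belong to the ATF4 branch and differed widely in their values, with the fixed letters in capitals.
ASNS, chr7:97872463-97872481, minus strand: aggcaTGATGaAActtccc
CHAC1, chr15:40953256-40953274, plus strand: ctgccgTTgCATCActcct

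**Figure D1:**
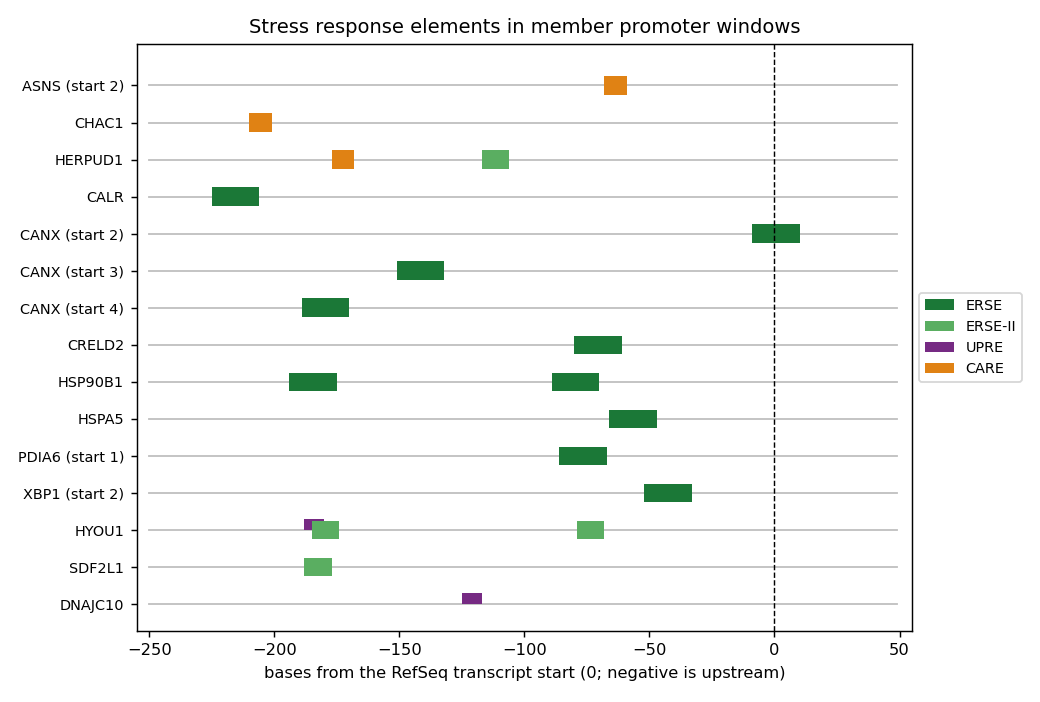
Position of each element in the promoter windows of the genes that held at least 1 (rows, with the start numbered where a gene has several), in bases from the RefSeq transcript start. Coloured bars are ERSE, ERSE-II, UPRE and CARE, and grey lines span the window from 250 bases before the start to 50 bases from it on. All hits lay before the start except 1 at a start of CANX, and 15 windows of 13 genes are drawn.

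IGF2R itself was at 641 and 645 with siIGF2R and 7288 and 6710 with siCtrl in BOKU, and at 257 and 295 with siIGF2R and 4120 and 3838 with siCtrl in SKG-I. Its log2 fold change over both lines was −3.65 ± 0.21 (SE, adjusted p = 0.0221, limma). The deposited signals have a 2% trimmed mean of 500 on every array, and duplicates differed by an SD of 0.27 to 0.35 on the log2 scale. Of the 6 epithelial markers, KRT8, KRT18 and KRT19 were at 500 or more on all 8 arrays, while KRT5 was at most 45.9. EPCAM reached 500 on 4 arrays and CDH1 on 2. None of the 4 annotated leukocyte and 4 endothelial markers reached 500 on any array, and of the 6 fibroblast markers COL1A1 did on all 8 arrays and COL3A1 on 4. The signals describe RNA of whole cultures scaled to a common level, so that a change in every cell and a change in the share of cells cannot be told apart.

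Over both lines, DNAJB11 and DNAJC3 fell and CHAC1 rose with siIGF2R, and the other 30 measured genes did not pass the test. The test was limma on log2 signals with the cell line as a block, the 2 lines as replicates (1 residual degree of freedom per probe set) and a Benjamini-Hochberg adjusted p under 0.05 over 16517 probe sets. The count of 1 higher gene (3.03%) and 2 lower genes (6.06%) of 33 stood beside 2.63% called higher and 2.37% called lower of all genes, and counts this small do not set the genes apart from the rest. Without the variance trend in limma, 0 of the 33 were called (adjusted p of 0.102 to 0.103 for these 3 genes), and 0 of all 16517 probe sets. At an unadjusted p under 0.05, 9 were higher and 7 lower, against 14.4% higher and 14.0% lower of all genes. A 2-fold difference in both lines was seen for the same genes, higher for CHAC1 (1 of 33, against 3.18% of all genes) and lower for DNAJB11 and DNAJC3 (2 of 33, against 2.34%). The DNAJB11 and DNAJC3 calls are not independent evidence, since the study lists both among the genes it found changed on these arrays.

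By branch, the 21 measured genes of the ATF6/XBP1 chaperone branch had a median log2 difference of −0.16 in BOKU and −0.19 in SKG-I. The BOKU value of the chaperone branch was −0.054 without BOKU siCtrl replicate 2, −0.081 without BOKU siIGF2R replicate 1, −0.26 without BOKU siIGF2R replicate 2 and −0.022 with the mean of each gene's probe sets. The 8 genes of the ATF4 branch had a median of 0.79 in BOKU and one of 0.34 in SKG-I, and the medians of all 8961 genes were 0.03 and −0.03. The 4 sensors and factors had medians of 0.52 and −0.15. Within the chaperone branch the BOKU differences spanned −1.94 to 0.95 and those of SKG-I −1.76 to 0.98, so that its genes lay on both sides of 0.

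**Figure D2:**
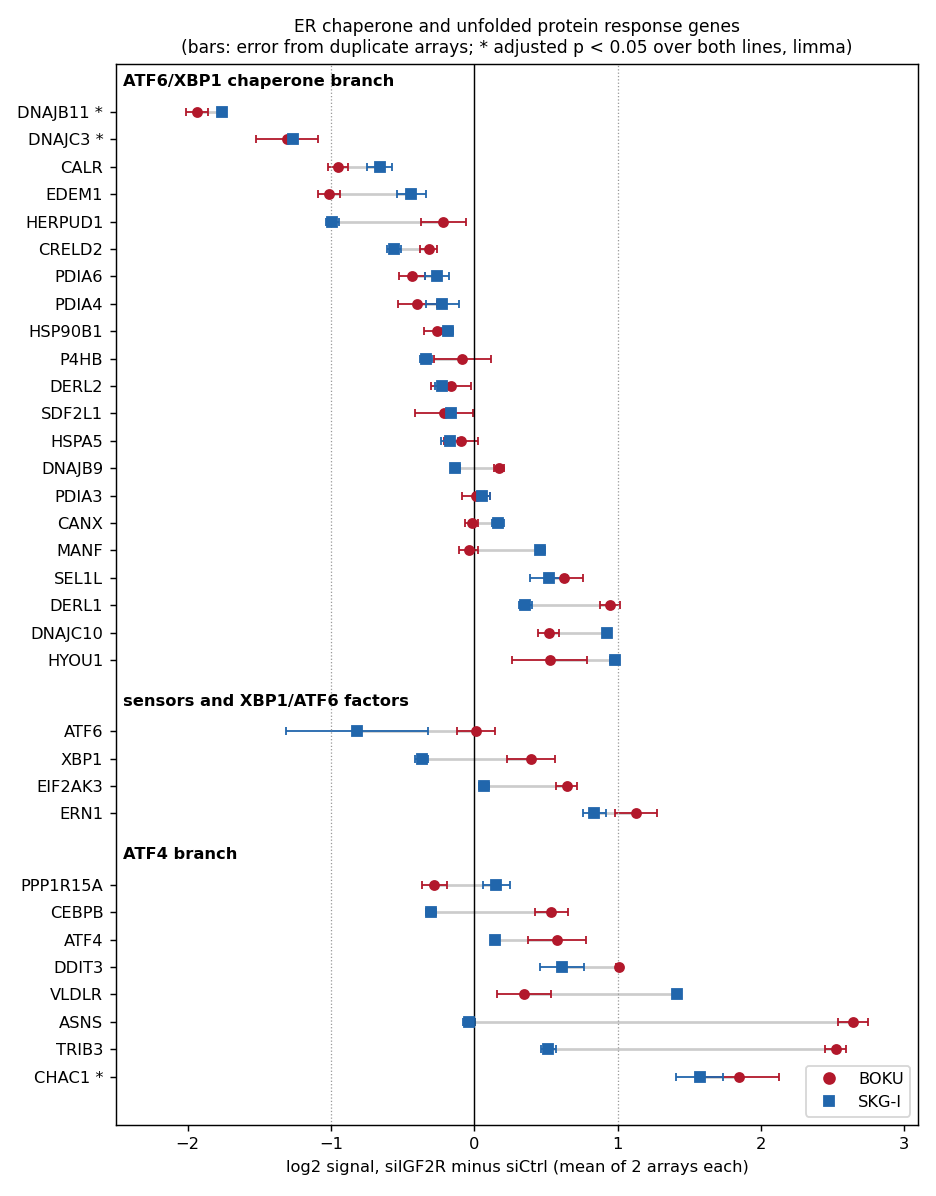
Log2 signal with siIGF2R minus siCtrl for the 33 measured genes, in BOKU (circles) and SKG-I (squares), ordered within each branch by the mean of both lines. Bars are the error from the duplicate arrays, dotted lines mark a 2-fold difference, and asterisks mark the 3 genes past the test over both lines (limma). DNAJB11 and DNAJC3 lie left of the lower dotted line in both lines and CHAC1 right of the upper one, while ASNS and TRIB3 lie far right in BOKU and near 0 or at 0.52 in SKG-I.

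Among the BiP partners, DNAJB11 (ERdj3), a J-domain protein that hands unfolded clients to BiP, showed the clearest fall. Its signal was 2452 and 2694 with siIGF2R and 9591 and 10099 with siCtrl in BOKU, and 3593 and 3550 with siIGF2R and 12143 and 12013 with siCtrl in SKG-I. Every siIGF2R array lay far below every siCtrl array of either line. The signal was 3.83-fold lower in BOKU and 3.38-fold lower in SKG-I, with a log2 fold change of −1.85 ± 0.15 (SE, adjusted p = 0.0221, limma). DNAJB11 has 1 probe set, so that no other probe set could be compared.

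DNAJC3 (p58IPK), an ER J-domain protein that is also known as an inhibitor of eIF2 kinases, was at 958 and 719 with siIGF2R and 2137 and 1973 with siCtrl in BOKU. In SKG-I it was at 1780 and 1820 with siIGF2R and 4391 and 4263 with siCtrl. The siIGF2R arrays were lower in both lines without overlap, by 2.47-fold in BOKU and 2.40-fold in SKG-I (log2 fold change −1.29 ± 0.19 SE, adjusted p = 0.0314, limma). Its second kept probe set had a log2 fold change of −0.99 (adjusted p = 0.0742), and with the mean of both the adjusted p was 0.0543, which ends the call.

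BiP itself differed little by its main probe set. HSPA5 was at 16470 and 19095 with siIGF2R and 18221 and 19548 with siCtrl in BOKU, which overlap, and at 18638 and 18297 with siIGF2R and 19949 and 21643 with siCtrl in SKG-I, which do not. The log2 fold change was −0.13 with a 95% interval of −0.40 to 0.14 (adjusted p = 0.476, limma). A dimmer HSPA5 probe set, at most 837 on any array, ran the other way with a log2 fold change of 1.04 (adjusted p = 0.0766), so that the 2 probe sets of BiP disagree.

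The other partners of BiP gave no call. HYOU1 (GRP170), a nucleotide exchange factor of BiP, was at 1758 and 1606 with siIGF2R and 979 and 1390 with siCtrl in BOKU, and at 4080 and 3921 with siIGF2R and 2043 and 2011 with siCtrl in SKG-I (log2 fold change 0.75 ± 0.21 SE, adjusted p = 0.0932, limma). DNAJC10 (ERdj5), a J-domain protein with thioredoxin domains that reduces disulfides before degradation, differed by 0.52 in BOKU, by 0.93 in SKG-I (adjusted p = 0.0860). Both lay above siCtrl without overlap in both lines and neither passed the test. DNAJC10 did pass without BOKU siCtrl replicate 1, where more of all probe sets were called than in the main fit. The other 2 kept probe sets of DNAJC10 had log2 fold changes of 0.17 and 0.16. DNAJB9 (ERdj4), which directs BiP to IRE1 and to degradation substrates, differed by 0.17 in BOKU and −0.13 in SKG-I, and SDF2L1, a partner of DNAJB11, by −0.21 and −0.16.

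Of the lectin chaperones of the calnexin cycle, which hold glycoproteins while they fold, CALR was lower in both lines and CANX near 0. CALR was at 4568 and 4597 with siIGF2R and 9311 and 8443 with siCtrl in BOKU, and at 4834 and 5453 with siIGF2R and 8238 and 7996 with siCtrl in SKG-I. The 2 siRNAs did not overlap in either line, and the log2 fold change of −0.81 ± 0.16 (SE) stopped just short of the threshold (adjusted p = 0.0517, limma). It passed the threshold without BOKU siCtrl replicate 1, BOKU siIGF2R replicate 2, SKG-I siCtrl replicate 2 or SKG-I siIGF2R replicate 2. Each of these fits called more of all probe sets than the main fit, and leaving out an array adds no replicate. CALR was called in 8 of 23 alternative settings, with log2 fold changes of −0.91 to −0.69 over the 23. The other 2 probe sets of CALR had log2 fold changes of −0.71 and −0.57. CANX differed by −0.02 in BOKU and 0.17 in SKG-I.

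The 4 disulfide isomerases had differences between −0.43 and 0.05. The test called 0 of 4, against 2.63% called higher and 2.37% called lower of all genes. PDIA6 was at −0.43 in BOKU and −0.26 in SKG-I, PDIA4 at −0.40 and −0.22, P4HB at −0.08 and −0.34, and PDIA3, the isomerase that works with calnexin and calreticulin, at 0.01 and 0.05. The 2 dimmer probe sets of PDIA3 were at 0.34 and 0.88 over both lines, so that its probe sets disagree in size. HSP90B1 (GRP94), the HSP90 of the ER, differed by −0.26 and −0.19, with a second probe set at 0.59 over both lines. CRELD2, a secreted ER stress protein, was at −0.32 and −0.56, and MANF, a secreted factor that also binds BiP, at −0.04 and 0.46.

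Among the 5 measured genes of ER-associated degradation, EDEM1, HERPUD1 and DERL2 had negative differences in both lines and SEL1L and DERL1 positive ones. None of the 5 was called by limma, against 2.63% called higher and 2.37% lower of all genes. At an unadjusted p under 0.05, 2 were higher and 2 lower, against 14.4% and 14.0% of all genes. With 5 genes, these counts do not set the group apart. EDEM1, the mannosidase-like protein that marks misfolded glycoproteins, was at 1908 and 1728 with siIGF2R and 3739 and 3591 with siCtrl in BOKU, and at 853 and 848 with siIGF2R and 1239 and 1073 with siCtrl in SKG-I (log2 fold change −0.73, adjusted p = 0.115, limma). HERPUD1, an ER membrane protein that recruits the degradation complex, differed by −0.22 in BOKU, where the arrays overlapped, and by −0.99 in SKG-I, where they did not. DERL2, a derlin like DERL1, was at −0.16 in BOKU, −0.23 in SKG-I, with overlapping arrays in BOKU. The other kept probe set of DERL2 was at 0.12 in BOKU and 0.02 in SKG-I, so that its probe sets disagree in direction. SEL1L, the scaffold of SYVN1, differed by 0.63 in BOKU and 0.52 in SKG-I. DERL1, a derlin of the retrotranslocation channel, differed by 0.95 and 0.36, and 1 of its other probe sets by −0.14 over both lines.

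**Figure D3:**
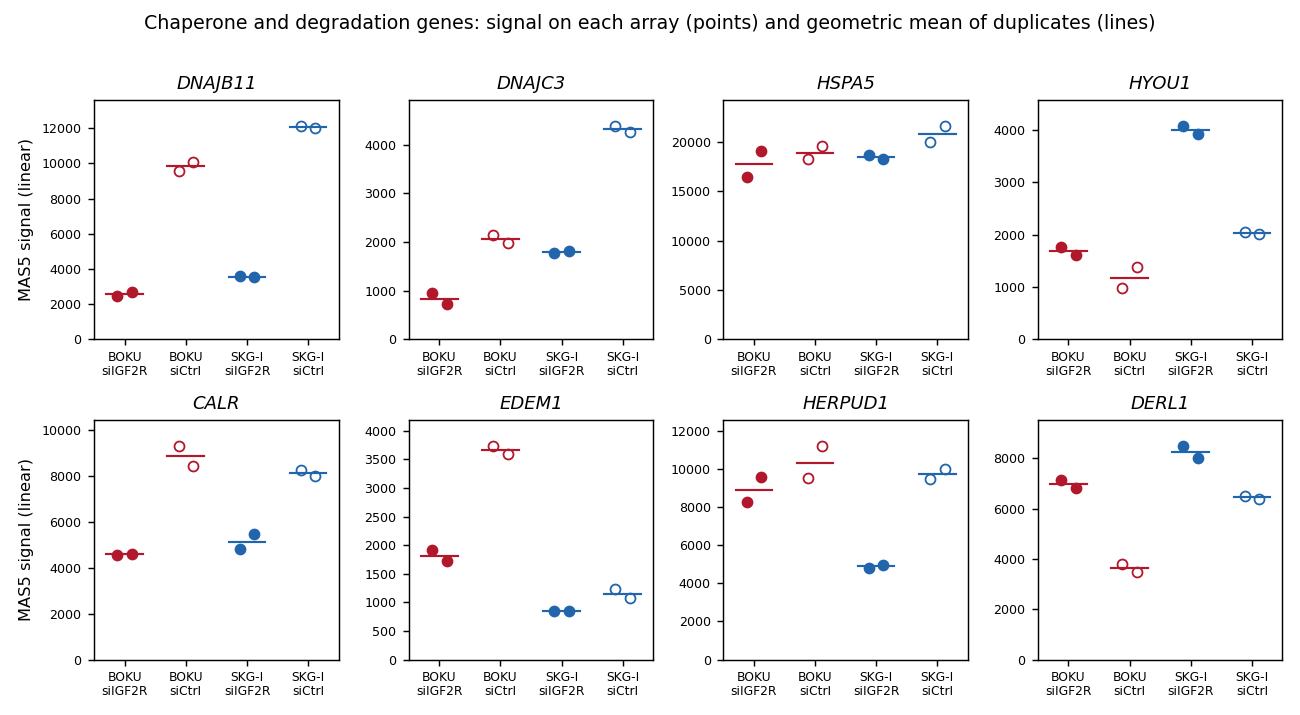
Linear MAS5 signal of 8 chaperone and degradation genes on each array, with filled points for siIGF2R and open points for siCtrl, in BOKU (red) and SKG-I (blue). Lines are geometric means of the 2 arrays, each axis starts at 0, and levels are not comparable between panels. The siIGF2R points of DNAJB11, DNAJC3, CALR and EDEM1 lie below their siCtrl points, those of HYOU1 and DERL1 above, and those of HSPA5 overlap in BOKU.

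In the chaperone branch as a whole, 8 of 21 genes were lower without overlap of the arrays in both lines (38.1%), against 25.2% of all genes, and 4 were higher (19.0%), against 26.4%. In SKG-I 14 of 21 were lower without overlap (66.7%), against 43.6% of all genes, and in BOKU 8 of 21 (38.1%), against 35.8%. The genes with at least 2-fold lower signal were DNAJB11, DNAJC3 and EDEM1 in BOKU (3 of 21, against 5.06% of all genes) and DNAJB11 and DNAJC3 in SKG-I (2 of 21, against 6.42%). No gene of the branch was at least 2-fold higher in either line.

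The genes with an ERSE or ERSE-II had medians close to those of the rest of the branch. The 9 of them in the chaperone branch had a median log2 difference of −0.22 in BOKU, −0.19 in SKG-I, whereas the 10 measured genes of the branch with a window and neither element had −0.12 and −0.22. Of the 10 genes with an element, XBP1 included, 0 were called by limma, against 2.63% called higher and 2.37% lower of all genes. At an unadjusted p under 0.05, 1 was higher and 4 lower (against 14.4% and 14.0% of all genes). A 2-fold difference in either line was reached by 0 of the 10. Of all genes, 8.02% were at least 2-fold higher and 5.06% lower in BOKU, and 8.28% and 6.42% in SKG-I. The called genes and those with a 2-fold difference in either line were among the 21 measured genes whose windows held neither. With 10 genes, counts of 0 do not set those with an element apart.

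The sensors and their factors gave no call. ERN1 (IRE1 alpha), the kinase and nuclease that splices XBP1 mRNA, was at 592 and 501 with siIGF2R and 264 and 235 with siCtrl in BOKU, and at 237 and 260 with siIGF2R and 143 and 134 with siCtrl in SKG-I. The siIGF2R arrays were higher without overlap in both lines, by 2.19-fold in BOKU and 1.79-fold in SKG-I, but 6 of the 8 signals were under 500 (log2 fold change 0.98 ± 0.34 SE, adjusted p = 0.140, limma). The filter kept ERN1 only through the siIGF2R arrays of BOKU. EIF2AK3 (PERK) was at 5559 and 5525 with siIGF2R and 3729 and 3364 with siCtrl in BOKU, and at 2397 and 2413 with siIGF2R and 2349 and 2235 with siCtrl in SKG-I. The gain was 0.65 in BOKU against 0.07 in SKG-I (adjusted p = 0.316).

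XBP1, whose spliced form drives chaperone and degradation genes, ran in opposite directions. It was at 3340 and 2701 with siIGF2R and 2398 and 2177 with siCtrl in BOKU, and at 3218 and 3190 with siIGF2R and 4256 and 4010 with siCtrl in SKG-I, which is 0.39 higher in BOKU and −0.37 in SKG-I on the log2 scale. The probe set does not tell spliced from unspliced mRNA. ATF6 was at 868 and 807 with siIGF2R and 901 and 761 with siCtrl in BOKU, and at 503 and 984 with siIGF2R and 1152 and 1338 with siCtrl in SKG-I, where the duplicate arrays of siIGF2R lay far apart. The log2 fold change over both lines was 0.01 ± 0.23 (SE) for XBP1 and −0.40 ± 0.27 (SE) for ATF6, and neither passed the test. The other 2 kept probe sets of ATF6 were lower in both lines, 1 of them at −0.33 in BOKU, −0.52 in SKG-I, and the other at −0.50 and −1.10, with −0.80 over both (adjusted p = 0.110, limma).

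In the ATF4 branch, CHAC1 rose, DDIT3 was higher in both lines, and TRIB3 and ASNS were far above siCtrl in BOKU and less so or not in SKG-I. CHAC1, a gamma-glutamyl cyclotransferase that degrades glutathione, was at 992 and 1426 with siIGF2R and 311 and 350 with siCtrl in BOKU, and at 720 and 727 with siIGF2R and 217 and 272 with siCtrl in SKG-I. All 4 siIGF2R signals were above 500 and all 4 siCtrl signals below it, so that the filter kept CHAC1 only through its siIGF2R arrays. The signal was 3.60-fold higher in BOKU and 2.98-fold higher in SKG-I, with a log2 fold change of 1.71 ± 0.24 (SE, adjusted p = 0.0313, limma).

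ATF4 mRNA itself was at 10240 and 13295 with siIGF2R and 7441 and 8232 with siCtrl in BOKU, and at 13121 and 13059 with siIGF2R and 11712 and 12000 with siCtrl in SKG-I. The siIGF2R arrays were above siCtrl in both lines, by 0.58 in BOKU and 0.14 in SKG-I, and the gene did not pass the test (adjusted p = 0.203, limma). DDIT3 (CHOP), the transcription factor of prolonged stress, was at 1378 and 1343 with siIGF2R and 675 and 679 with siCtrl in BOKU, and at 668 and 682 with siIGF2R and 398 and 492 with siCtrl in SKG-I (log2 fold change 0.81 ± 0.23 SE, adjusted p = 0.0982). The duplicates of ATF4 in BOKU with siIGF2R lay further apart than those of its other samples, and those of DDIT3 lay closer together than its siRNAs.

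TRIB3, a pseudokinase induced by ATF4 and CHOP, was at 2203 and 2160 with siIGF2R and 362 and 399 with siCtrl in BOKU, and at 2347 and 2213 with siIGF2R and 1560 and 1625 with siCtrl in SKG-I. ASNS, the asparagine synthetase, was at 2402 and 2458 with siIGF2R and 417 and 362 with siCtrl in BOKU, and at 2579 and 2683 with siIGF2R and 2638 and 2760 with siCtrl in SKG-I. The low samples were thus those of BOKU with siCtrl, and the other 3 samples of each gene lay near one another, less so for TRIB3. TRIB3 was 5.74-fold higher in BOKU and 1.43-fold in SKG-I, ASNS was 6.25-fold higher in BOKU with overlapping arrays in SKG-I, and neither passed the test over both lines (adjusted p = 0.110 and 0.220, limma). Without BOKU siCtrl replicate 1, TRIB3 was called, in a fit that called more of all probe sets than the main fit.

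Of the remaining 3 genes of the branch, VLDLR was higher in both lines and PPP1R15A and CEBPB ran in opposite directions. VLDLR, a lipoprotein receptor induced through PERK and ATF4, was higher by 0.35 in BOKU, by 1.41 in SKG-I (adjusted p = 0.150). PPP1R15A (GADD34), which returns eIF2 alpha to its unphosphorylated state, differed by −0.28 in BOKU and 0.15 in SKG-I. CEBPB, a C/EBP factor that pairs with ATF4, differed by 0.54 in BOKU and −0.30 in SKG-I.

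**Figure D4:**
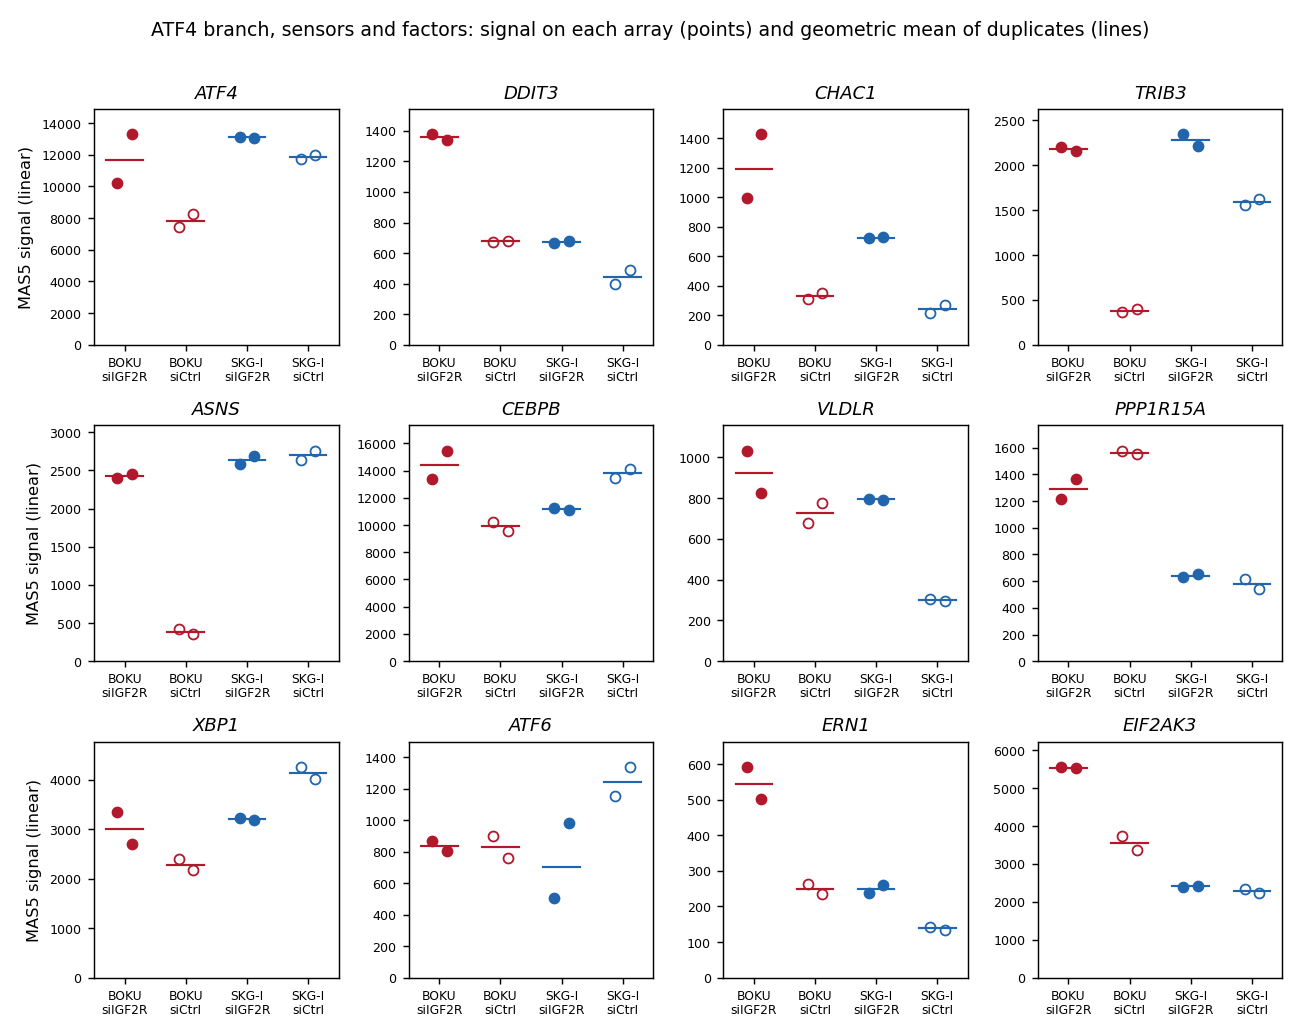
Linear MAS5 signal of the 8 ATF4 branch genes and the 4 sensors and factors on each array, with filled points for siIGF2R and open points for siCtrl, in BOKU (red) and SKG-I (blue). Lines are geometric means of the 2 arrays, each axis starts at 0, and levels are not comparable between panels. For TRIB3 and ASNS the BOKU siCtrl points stand apart at 362 to 417, and for CHAC1 the siIGF2R points lie above the siCtrl points in both lines.

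In the ATF4 branch 5 of 8 genes were higher in both lines without overlap (62.5%), against 26.4% of all genes, and 0 were lower in both. Within a line, 7 of 8 were higher without overlap in BOKU (87.5%), against 40.4% of all genes, and 6 of 8 in SKG-I (75.0%), against 39.6%. At least 2-fold higher signals were seen for 4 of 8 genes in BOKU (ASNS, TRIB3, CHAC1 and DDIT3), against 8.02% of all genes, and for 2 of 8 in SKG-I (CHAC1 and VLDLR), against 8.28%. CHAC1 was the only gene of the branch in both sets. The calls and counts describe 8 genes chosen by name, with earlier results of these data known. With 1 RNA sample per line and siRNA the difference between the lines was not tested.

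The likeness of the lines was described across genes. Of the 33 genes, 25 had the same sign in both lines (75.8%), against 71.5% of all genes, and these were 18 of 21 in the chaperone branch and 5 of 8 in the ATF4 branch. Pearson's r between the differences in BOKU and in SKG-I, across genes, was 0.67 over all 33 (Spearman's rho 0.70), 0.87 over the 21 chaperone branch genes (rho 0.88) and 0.08 over the 8 ATF4 branch genes (rho 0), and 0.52 over all 8961 genes (rho 0.56). The lines share no RNA sample, genes are not independent replicates, and these values are a description only.

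**Figure D5:**
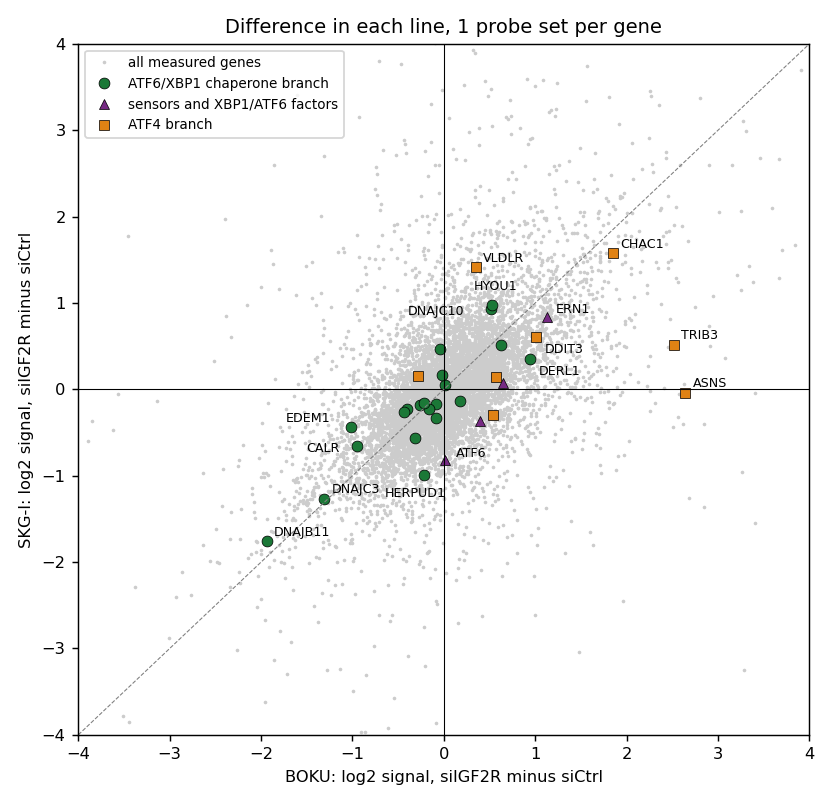
Log2 signal with siIGF2R minus siCtrl in BOKU (x axis) against SKG-I (y axis), 1 probe set per gene, with all measured genes in grey (21 lie outside the axes) and the 33 genes coloured by branch. DNAJB11 (−1.94 and −1.76) and DNAJC3 (−1.31 and −1.27) lie near the dashed line of equal change, HERPUD1 (−0.22 and −0.99), DERL1 (0.95 and 0.36) and EDEM1 (−1.01 and −0.44) lie off it, and ASNS and TRIB3 lie farther off it.

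The lines themselves differed in several of these genes at either siRNA. In BOKU minus SKG-I over both siRNAs, 6 of 33 genes were higher in BOKU (18.2%), against 22.0% of all genes, and 4 were higher in SKG-I (12.1%), against 24.2% (limma, adjusted p under 0.05). SEL1L was higher in BOKU with a log2 difference of 1.65, EDEM1 with 1.38, PPP1R15A with 1.22, MANF with 1.06, EIF2AK3 with 0.92 and DDIT3 with 0.81. CRELD2 was lower in BOKU than in SKG-I with −1.53, DNAJC3 with −1.10, and PDIA4 and HYOU1 with −1.02 each.

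For ASNS and TRIB3 the gap between the lines was narrow with siIGF2R and wide with siCtrl. With siIGF2R, BOKU minus SKG-I was −0.11 for ASNS and −0.06 for TRIB3, and with siCtrl it was −2.80 and −2.07. For VLDLR it was 0.22 with siIGF2R and 1.28 with siCtrl. These gaps share their samples with the differences given above and add no evidence to them.

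Other genes of the same machinery, listed by function, gave few calls. Of 36 measured genes of ER folding and disulfide formation other than those above, 2 rose (5.56%, against 2.63% of all genes) and 0 fell, against 2.37%, and their median difference was −0.02 in BOKU, −0.01 in SKG-I. FKBP11, a prolyl isomerase of the ER, was at 2113 and 1836 with siIGF2R and 710 and 692 with siCtrl in BOKU, and at 3436 and 3488 with siIGF2R and 1344 and 1585 with siCtrl in SKG-I (log2 fold change 1.37 ± 0.20 SE, adjusted p = 0.0314, limma). MOGS, the glucosidase that trims the first glucose from glycoproteins, had a log2 fold change of 1.62 ± 0.24 (SE, adjusted p = 0.0321, limma). Its signal was 869 and 772 with siIGF2R and 210 and 297 with siCtrl in BOKU. In SKG-I it was 1048 and 1079 with siIGF2R and 463 and 297 with siCtrl. The filter thus kept MOGS only through its siIGF2R arrays.

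Of 28 further genes of ER-associated degradation, 1 rose (3.57%, against 2.63% of all genes) and 2 fell (7.14%, against 2.37%), and the median difference was −0.08 in BOKU, −0.18 in SKG-I. HERPUD2, a homologue of HERPUD1, rose with a log2 fold change of 1.16 (adjusted p = 0.0460, limma). AUP1, a lipid droplet and ER protein that recruits a ubiquitin-conjugating enzyme, fell with −1.24 (adjusted p = 0.0408), and FAF2, a membrane adaptor of the p97 ATPase, with −1.13 (adjusted p = 0.0484). AUP1 is also on the study's own list of changed genes.

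Of 41 further genes of ATF4 and the amino acid response, 3 rose (7.32%, against 2.63% of all genes) and 0 fell, against 2.37%, and the median difference was 0.32 in BOKU, −0.03 in SKG-I. ATF3, a stress-induced transcription factor downstream of ATF4, was at 1948 and 2079 with siIGF2R and 723 and 597 with siCtrl in BOKU, and at 2060 and 1955 with siIGF2R and 767 and 742 with siCtrl in SKG-I (log2 fold change 1.51 ± 0.20 SE, adjusted p = 0.0285, limma). MTHFD2, a mitochondrial folate enzyme, rose by 1.36 and GDF15, a secreted stress cytokine, by 1.14 on the log2 scale. At least 2-fold higher signals were seen for 8 of the 41 in BOKU (19.5%, against 8.02% of all genes) and for 6 in SKG-I (14.6%, against 8.28%). At least 2-fold lower signals were seen for 0 of the 41 in BOKU, against 5.06% of all genes, and for 3 in SKG-I (7.32%, against 6.42%). Without overlap of the arrays, 25 of the 41 were higher in BOKU (against 40.4% of all genes) and 10 lower (against 35.8%). In SKG-I, 17 of the 41 were higher without overlap (against 39.6% of all genes) and 21 lower (against 43.6%).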

How the data were processed

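The authors prepared total RNA of BOKU and SKG-I cells with ISOGEN, labelled it with a 3' IVT kit and hybridised it to GeneChip U133 Plus 2.0 arrays. The values the authors deposited are intensities, linear MAS5 signals of 54675 probe sets on each of 8 arrays. The methods give scaling to a mean of 1000, whereas the deposited signals have a 2% trimmed mean of 500 on each array. They were used as deposited, on a log2 scale, and the duplicate arrays of each of the 4 RNA samples were averaged. After removal of 62 control probe sets, a filter kept those that reached 500 on any array, which left 16517, of which 14544 had 1 gene, 765 several and 1208 none in the platform annotation. Old symbols were updated through RefSeq gene IDs.

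limma 3.58.1 in R 4.3.3 fitted the siRNA and the cell line with a variance trend (two-sided), over all kept probe sets, and 4.82 prior degrees of freedom were added to 1. Differences within a line had no test, since each rests on 1 RNA sample per siRNA. The p-values rest on the spread between the 2 lines, moderated by that of all probe sets, and the 8 arrays limit the precision of every value. The fit was also run on simulated data. The noise there was set by the mean signal, as the variance trend assumes, so that this run does not test the trend. Promoter windows and elements were handled in Python 3.11.15.

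The members, branches, other lists and tests were chosen with earlier results of these data known. Every listed gene is accounted for. Array values are given for called genes, for those at least 2-fold changed in both lines, and for HSPA5, XBP1, ATF4, ATF6, DDIT3, ERN1 and EIF2AK3. Of each further list the called genes are named. The array values of CALR, HYOU1, EDEM1, TRIB3, ASNS, CEBPB, FKBP11, ATF3 and EIF2AK2, and the oligosaccharyltransferase genes, were picked after their values had been seen. Alternatives were the filter, normalization, a floor or added constant, the variance model, the block, arrays as separate samples, the choice of probe set, the methods' t-test and leaving out each array. Probe sets ending in _x_at, which represent HSP90B1, PDIA6 and CALR, may bind related transcripts.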

Additional observations from a re-analysis of the deposited data

Results flagged for a closer look

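For 4 of the 33 genes (12.1%), against 13.3% of all genes, the siIGF2R and siCtrl arrays did not overlap in either line and lay in opposite order in BOKU and SKG-I. The response in BOKU minus that in SKG-I was 0.84 on the log2 scale for CEBPB, 0.76 for XBP1, 0.30 for DNAJB9 and −0.43 for PPP1R15A. The other kept probe sets of DNAJB9 disagreed in direction. One was at −0.06 in BOKU and 0.08 in SKG-I, and the other at 0.37 and −0.03. CEBPB was at 13359 and 15465 with siIGF2R and 10214 and 9594 with siCtrl in BOKU, and at 11241 and 11138 with siIGF2R and 13461 and 14141 with siCtrl in SKG-I. The difference between the lines was not tested for any of them, because each line and siRNA has 1 RNA sample. For XBP1, leaving out single arrays turned the sign of its near-zero mean over both lines.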

How the results depend on the processing

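The test rests on the variance model and on the lines as replicates. Without the variance trend, or without the cell line block, limma called 0 of the 33 genes and 0 of all 16517 probe sets. The adjusted p without the trend was 0.102 to 0.103 for the 3 genes (limma). At an unadjusted p under 0.05, 6 were higher and 4 lower without the trend, where 3865 of all probe sets passed. Without the block 1 was higher and 2 lower, where 625 of all probe sets passed. With arrays as separate samples, 12 were called higher and 9 lower, beside 8102 of all 16517 probe sets, which takes technical spread for replicates. With a replicate block of the array number it was 11 and 9, beside 7601 of all probe sets. The array numbers share only a number (correlation of their deviations 0.13 in BOKU and 0.06 in SKG-I). The mean of all kept probe sets left 1 lower call, and the methods' t-test in both lines after Benjamini-Hochberg gave 0 higher and 1 lower. Leaving out single arrays gave 1 to 3 higher calls and 2 to 3 lower. Without BOKU siCtrl replicate 1, TRIB3, DNAJC10 and CALR were called. CALR was also called without BOKU siIGF2R replicate 2, SKG-I siCtrl replicate 2 or SKG-I siIGF2R replicate 2. It passed too with median scaling (adjusted p = 0.0376, limma) or 64 added (adjusted p = 0.0345). Each of these settings called more of all probe sets than the main fit.

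Median scaling moved the median of all probe sets to −0.08 from 0.02. The chaperone branch median in BOKU was −0.27 with it, −0.11 with quantile normalization, −0.11 with a mean of 1000, −0.022 with the mean of probe sets, −0.086 without _s_at and _x_at probe sets, and −0.054 to −0.26 without single arrays. In SKG-I it was −0.29, −0.15, −0.14, −0.10, −0.21 and −0.17 to −0.23. Genes near 0 changed sign: HSPA5 (0.00048 with quantile normalization, 0.46 with the mean of probe sets), HSP90B1 (0.18) and PPP1R15A (0.014) with the mean of probe sets, DNAJB9 (−0.083), PDIA3 (−0.070), CANX (−0.029) and XBP1 (−0.089) with median scaling, PDIA3 without BOKU siIGF2R replicate 2 (−0.011, up to 0.077 without the other single arrays), and XBP1 without BOKU siCtrl replicate 2 (−0.021), BOKU siIGF2R replicate 1 (−0.063, the lowest) or SKG-I siCtrl replicate 2 (−0.0075), with 0.091 as the highest. The cause was not tested. All signs of DNAJB11, DNAJC3 and CHAC1 held under all settings.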

Other observations

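Most genes of the oligosaccharyltransferase, which attaches N-glycans to proteins as they enter the ER, lay below siCtrl. Of its 12 measured genes, 8 were lower in both lines without overlap of the arrays (66.7%), against 25.2% of all genes, and 0 were higher in both. These 12 genes were picked after their values had been seen, so that their shares are a description only. The medians were −0.23 in BOKU and −0.43 in SKG-I. OSTC, an accessory subunit, was nearest to the threshold with −0.62 in BOKU, −0.91 in SKG-I (adjusted p = 0.0512, limma), followed by DAD1 with −0.35 and −0.52 (adjusted p = 0.105). None of the 12 passed the test (limma), against 2.63% called higher and 2.37% called lower of all genes. At an unadjusted p under 0.05 there were 5 below siCtrl (41.7%, against 14.0% of all genes) and 0 above it (against 14.4%). The catalytic subunit STT3A differed by 0.06 in BOKU and −0.61 in SKG-I, and STT3B by −0.20 and −0.04.

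Of 29 measured genes of ER translocation and signal peptide cleavage, 2 rose (6.90%, against 2.63% of all genes) and 1 fell (3.45%, against 2.37%), and the median difference was 0.03 in BOKU, −0.07 in SKG-I. SPCS2, a subunit of the signal peptidase, rose by 0.90, CAMLG, a receptor for tail-anchored proteins, rose by 1.16, and SRPRA, the signal recognition particle receptor, fell by 1.09 on the log2 scale (adjusted p = 0.0391, 0.0377 and 0.0452, limma). Among the 13 eIF2 kinases and subunits, EIF2AK2 (PKR), the kinase activated by double-stranded RNA, rose with a log2 fold change of 1.31 ± 0.22 (SE, adjusted p = 0.0408, limma). It was the only call (7.69% of the 13 higher, against 2.63% of all genes, and 0 lower, against 2.37%). It was at 2280 and 2079 with siIGF2R and 1182 and 998 with siCtrl in BOKU, and at 6317 and 6636 with siIGF2R and 2143 and 2088 with siCtrl in SKG-I. Of 18 further ER stress factors, 0 were called by limma, against 2.63% called higher and 2.37% lower of all genes. At an unadjusted p under 0.05, 1 was higher (5.56%, against 14.4% of all genes) and 1 lower (5.56%, against 14.0%).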
